A study of Mus musculus with 2 samples.

Results

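The genes described here are 46 that mark microglia, the resident macrophages of the brain parenchyma, or border macrophages, which line blood vessels, meninges and choroid plexus. They were taken by symbol from a list named for these cells, and all 46 were found among the 55536 annotated genes of the deposited tables. The data are total RNA-seq of mouse hippocampus from 2 libraries, here called replicate 2 and replicate 1, which the labels assign to animal 5 and animal 1. The labels call the tissue a hippocampal layer, with no word on which one or on its dissection. Both animals were adult females of 8 to 10 months and of strain B6CASTF1/J, that is, F1 hybrids between C57BL/6J and CAST/EiJ, untreated as far as the labels say, and each library began from 300 ng of RNA with ERCC spike-in transcripts added. The labels give both samples 1 donor identifier, so that they stand for separate animals rests on the animal numbers. Both libraries belong to 1 group and no condition was compared. Values therefore give the level of each gene in this tissue and its spread between the libraries.

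Microglia enter the brain from the yolk sac early in development and are kept alive by the CSF1 receptor, which binds the growth factors CSF1 and IL34. In the adult hippocampus they survey neurons through receptors for nucleotides and for the neuronal chemokine fractalkine, take up synapses tagged with complement, and clear dying cells through TREM2 and the TAM receptors. Border macrophages share much of this machinery and are told apart by scavenger and adhesion receptors such as CD206, CD163 and LYVE1.

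Counts on annotated genes totalled 28356913 in replicate 2 and 34147402 in replicate 1. TPM, the length-corrected share of transcripts, is the unit of level, and means are written ± SD with n = 2. Ratios are replicate 2 over replicate 1, from counts scaled by the TMM method, with an exact 95% interval that covers counting error only. A gene was counted as differing at least 2-fold where its log2 ratio reached 1 in size, its mean count was at least 50 and its interval excluded a ratio of 1. Of 14434 genes with such a mean count, 159 or 1.1% met this criterion. No p-value is given, since a single library stands for each animal. Where lists of other cell types stood apart, they are given below, whether or not any members moved with them. The list of choroid plexus epithelium differed most, whose summed level was 651 TPM in replicate 2 against 30.8 TPM in replicate 1.

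Most of the microglial genes were present at moderate or low level. In both libraries 38 of the 46 reached a TPM of 1, against 27.5% of all annotated genes and 59.1% of protein-coding genes. Their levels summed to 404 TPM in replicate 2 and 414 TPM in replicate 1, which was 0.0812% of the TPM of nuclear protein-coding genes in replicate 2 and 0.0827% in replicate 1. In bulk tissue, a low sum from few cells cannot be told apart from a low sum from little RNA per cell. The sum also counts Lpl, C4b, Axl and Mertk, which other brain cells make too, so it is not the level of these macrophages alone. Csf1r was the highest member at 32.1 ± 2.89 TPM, rank 3960 among 22015 nuclear protein-coding genes. By mean level 7 members lay at 20 TPM or more, 9 from 10 to under 20, 22 from 1 to under 10, and 8 under 1. Of the 45 neighbouring pairs in the order of levels, 5 were apart by more than both SDs in both libraries. These breaks followed Ctss, C4b, Tyrobp, Tmem119 and Lyz2, and the order of the other neighbouring pairs is not settled by these libraries. Members further apart within a stretch can still differ beyond their spread. Sall1 at 5.85 ± 0.61 TPM and Clec7a at 0.045 ± 0.007 TPM, for example, lie in the same stretch. Across members the levels of the libraries had a Pearson r of 0.979 on the log2(TPM + 1) scale. Genes are not independent replicates, and this describes the list only.

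**Figure D1:**
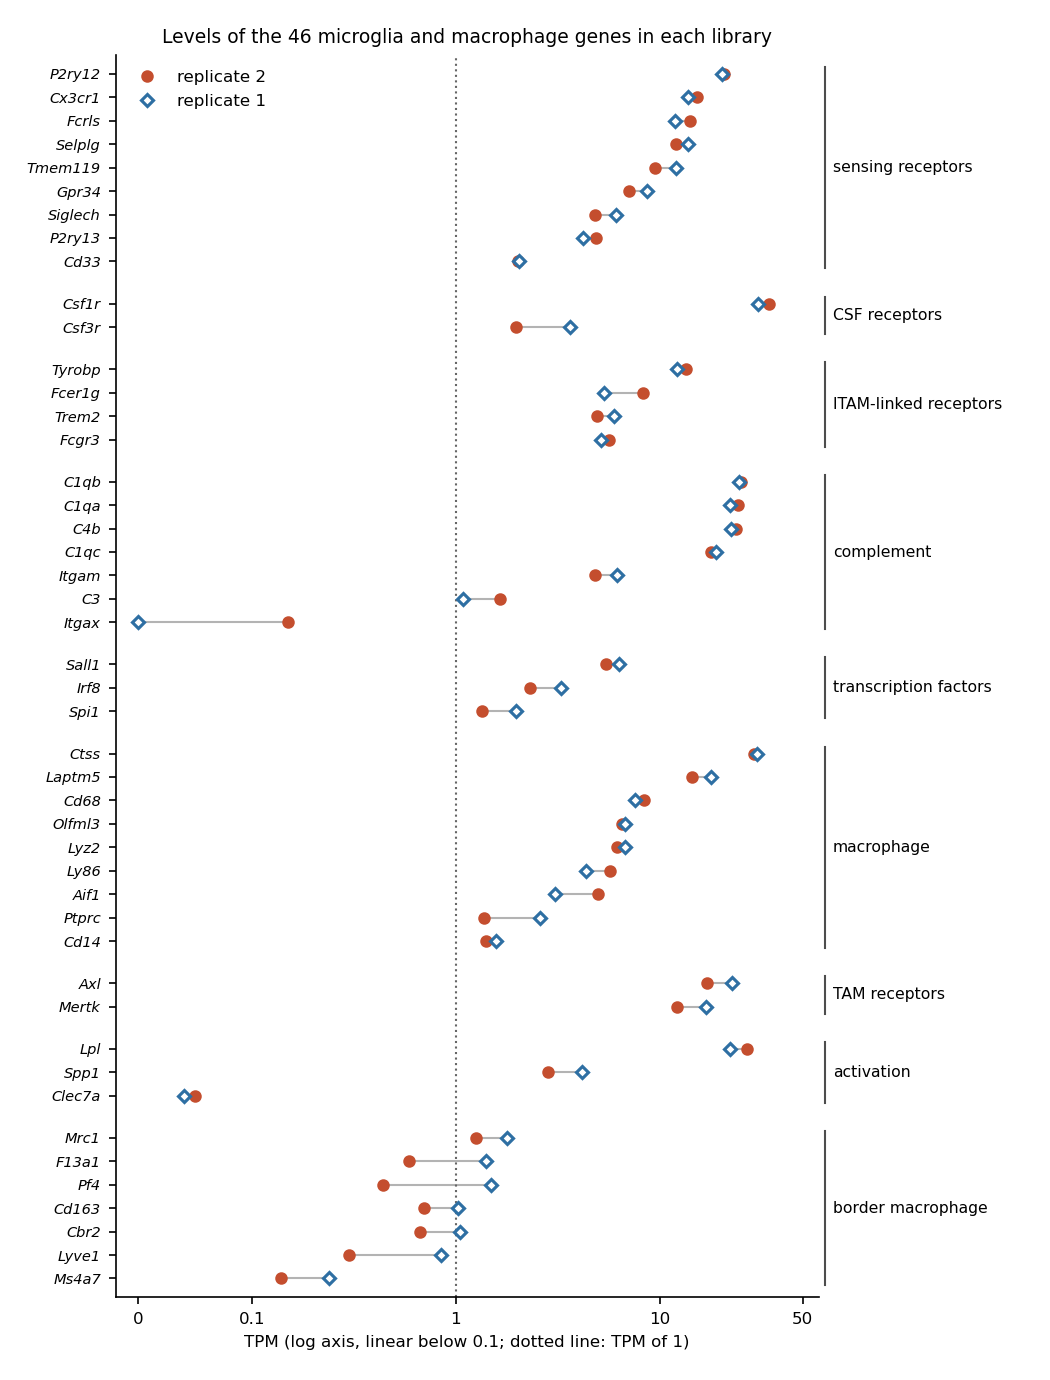
TPM of each of the 46 members in replicate 2 (filled circles) and replicate 1 (open diamonds) on a log axis that is linear below 0.1, grouped by role. Csf1r, Ctss and the C1q genes lie near 20 to 35 TPM in both libraries, and all 7 border macrophage genes have the replicate 2 symbol to the left.

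Between the libraries the members differed little, with 1 exception in 37. Of the 37 members with a mean count of at least 50, only F13a1 met the 2-fold criterion, against 1.1% of all genes tested. The median log2 ratio of the 37 members was -0.08, beside -0.02 over all genes tested. Counting intervals excluded a ratio of 1 for 44.3% of all genes tested. They did so for 6 members that were higher in replicate 2 and 10 that were lower, beside 18.7% and 25.6% of all genes tested. The interval measures sampling of reads alone, and how much healthy animals vary cannot be read from 2 libraries. The other 9 members had mean counts under 50 and are described by their counts.

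**Figure D2:**
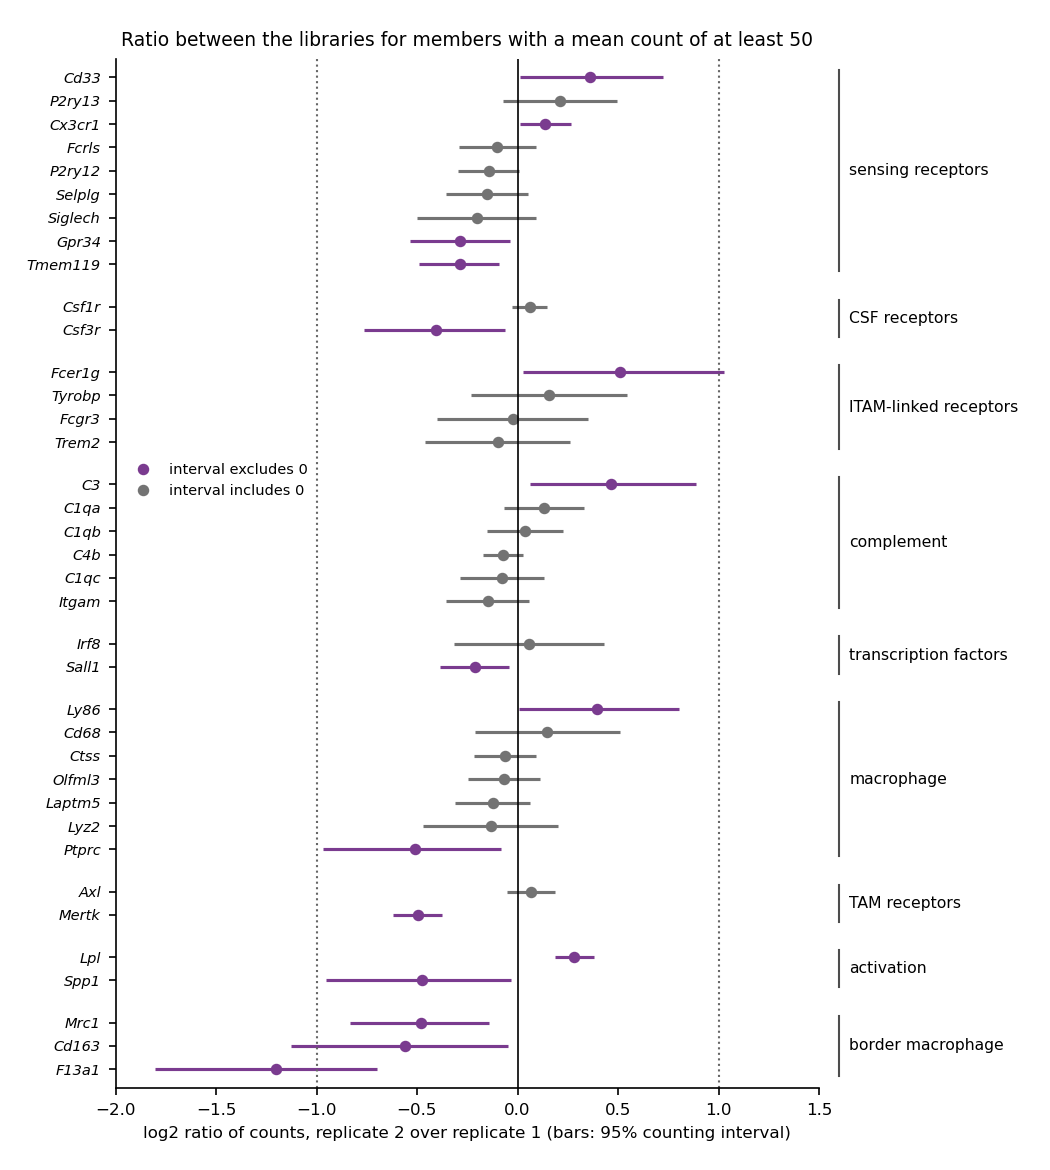
Log2 ratio of counts, replicate 2 over replicate 1, for the 37 members with a mean count of at least 50, with 95% counting intervals and dotted lines at a 2-fold difference. F13a1 alone lies beyond the dotted line on the left, at -1.20, and the largest ratio on the right is that of Fcer1g at 0.51.

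All 9 sensing receptors, through which microglia survey their surroundings, were at 1 TPM or more in both libraries. P2ry12, the ADP receptor that steers microglial processes towards injury, had 20.5 TPM in replicate 2 and 20.2 TPM in replicate 1. Its counts gave a log2 ratio of -0.14 with an interval from -0.30 to 0.01, and the second transcript table had 15.1 TPM in replicate 2 and 16.4 TPM in replicate 1. Cx3cr1, the receptor of fractalkine, had 15.1 TPM in replicate 2 and 13.7 TPM in replicate 1. Its log2 ratio was 0.14 with an interval from 0.01 to 0.27. Scaling by spike-ins turned this direction, to -0.10 with an interval from -0.23 to 0.02, so the sign for Cx3cr1 is not settled.

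Tmem119, a membrane protein widely used to tell microglia from other macrophages, had 9.41 TPM in replicate 2 and 11.9 TPM in replicate 1. Its log2 ratio of -0.29 had an interval from -0.49 to -0.09. Gpr34, a receptor for lysophosphatidylserine, was lower in replicate 2 by much the same amount, at 7.02 TPM against 8.66 TPM in replicate 1. The remaining 5 receptors spanned a range of levels. Fcrls, an Fc receptor-like protein of mouse microglia, had 14.0 TPM in replicate 2 and 11.9 TPM in replicate 1. Selplg, the ligand of P-selectin, had 11.9 TPM in replicate 2 and 13.7 TPM in replicate 1. Siglech, a sialic acid-binding lectin that signals through the adaptor TYROBP, had 4.81 TPM in replicate 2 and 6.11 TPM in replicate 1. None of these 3 had an interval that excluded a ratio of 1.

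P2ry13, a second ADP receptor, had 4.86 TPM in replicate 2 and 4.20 TPM in replicate 1, so that P2ry12 stood above it by 4.21 times in replicate 2 and 4.81 times in replicate 1. Both genes lie inside Med12l on the opposite strand, a gene with 25.7 TPM in replicate 2 and 28.8 TPM in replicate 1. The use of strand in counting, not given in the sources used here, decides how far reads of Med12l were kept apart from theirs. Cd33, an inhibitory receptor for sialic acid, was the lowest of the group at 2.02 TPM in replicate 2 against 2.04 TPM in replicate 1. Its counts gave a log2 ratio of 0.36 with an interval from 0.01 to 0.72 where its TPM did not move, since the deposited effective length was 3905 bases in replicate 2 and 3000 bases in replicate 1.

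The survival receptor Csf1r was first by mean level, though not apart from Ctss beyond their spread. Csf1r had 34.1 TPM and 1991 counts in replicate 2, against 30.0 TPM and 2285 counts in replicate 1. Its log2 ratio was 0.06 with an interval from -0.03 to 0.15, the narrowest among the members. Of its ligands, Il34 had 29.5 TPM in replicate 2 and 42.1 TPM in replicate 1, and Csf1 had 9.57 TPM in replicate 2 and 12.1 TPM in replicate 1. Il34 stood above Csf1 in both libraries, by 3.08 times in replicate 2 and 3.49 times in replicate 1. Both ligands had intervals below a ratio of 1, at log2 ratios of -0.52 for Il34 and -0.45 for Csf1, while their receptor did not.

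Csf3r, the receptor of the granulocyte growth factor, was far lower than Csf1r, at 1.98 TPM in replicate 2 against 3.61 TPM in replicate 1. Its log2 ratio was -0.40 with an interval from -0.76 to -0.06. Csf3r is best known from neutrophils, whose defining genes were almost without reads here: S100a8 and S100a9 had 1 count each over both libraries, and Ngp, Camp, Ly6g, Mmp8, Elane and Retnlg had 0. A count of 0 allows up to 3 counts in a library. Its ligand Csf3 also had 0 counts in both.

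Receptors that signal through immunoreceptor tyrosine-based activation motifs, short cytoplasmic sequences that recruit the kinase SYK, were all 4 above 5 TPM on average. Tyrobp, the adaptor also called DAP12, had 13.5 TPM in replicate 2 and 12.1 TPM in replicate 1. Its partner Trem2, a receptor for lipids and apolipoproteins, had 4.92 TPM in replicate 2 and 5.93 TPM in replicate 1. The adaptor was 2.74 times its partner in replicate 2 and 2.03 times in replicate 1. Neither gene had an interval that excluded a ratio of 1.

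Fcer1g, the gamma chain that serves Fc receptors as adaptor, had 8.22 TPM and 77 counts in replicate 2, against 5.29 TPM and 64 counts in replicate 1. Its log2 ratio of 0.51, with an interval from 0.03 to 1.03, was the highest among the 37 members. In the second transcript table the same ratio was 0.41 with an interval from -0.06 to 0.91. Fcgr3, an activating receptor for immunoglobulin G, had 5.61 TPM in replicate 2 and 5.16 TPM in replicate 1. Its near copy Fcgr2b had 1.31 TPM in replicate 2 and 2.02 TPM in replicate 1, and Fcgr4 had 0 counts.

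Downstream of these adaptors, 6 of 8 listed signalling genes reached 1 TPM in both libraries. The inositol phosphatase gene Inpp5d had 8.94 TPM in replicate 2 and 7.04 TPM in replicate 1. The adaptor gene Blnk had 4.27 TPM in replicate 2 and 3.84 TPM in replicate 1. Lowest was the kinase gene Btk, at 0.41 TPM in replicate 2 against 1.18 TPM in replicate 1. No interval of the 6 genes with a mean count of at least 50 excluded a ratio of 1.

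Complement genes held the largest summed level of any group of members in the gene table, 97.0 TPM in replicate 2 and 94.5 TPM in replicate 1. In the second transcript table the order turned, with a mean sum of 79.2 TPM for complement and 85.0 TPM for the sensing receptors. The 3 chains of C1q, the protein that starts the classical cascade and tags synapses, are encoded side by side on chromosome 4. On GRCm38 (mm10) with GENCODE M21 they lie on the minus strand, C1qb at chr4:136880129-136886187, C1qc at chr4:136889804-136893065 and C1qa at chr4:136895917-136898803. C1qb had 24.9 TPM in replicate 2 and 24.3 TPM in replicate 1. C1qa had 24.2 TPM in replicate 2 and 22.1 TPM in replicate 1. C1qc had 17.8 TPM in replicate 2 and 18.7 TPM in replicate 1. The chains join in equal numbers in the protein, and their RNA levels were within 1.40 times of each other, with C1qb above C1qc by 1.40 times in replicate 2 and 1.30 times in replicate 1. Log2 ratios between the libraries were 0.04, 0.13 and -0.08 for C1qb, C1qa and C1qc, and no interval excluded a ratio of 1.

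The promoters of the neighbours C1qb and C1qc are shown because the genes sit together and both windows hold the core site of PU.1, the factor encoded by the member Spi1. Each runs from 250 bases before to 50 after the start site and comes from RefSeq on GRCm38.p6, on the minus strand, with the match in capitals. The C1qb window is chr4:136886151-136886450 and the C1qc window is chr4:136892865-136893164.
C1qb promoter: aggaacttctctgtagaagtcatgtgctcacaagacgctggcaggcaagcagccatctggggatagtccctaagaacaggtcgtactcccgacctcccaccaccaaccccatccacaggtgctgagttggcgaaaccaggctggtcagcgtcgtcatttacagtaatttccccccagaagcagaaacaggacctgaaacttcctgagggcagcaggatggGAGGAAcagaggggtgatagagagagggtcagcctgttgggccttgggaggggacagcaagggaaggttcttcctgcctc
C1qc promoter: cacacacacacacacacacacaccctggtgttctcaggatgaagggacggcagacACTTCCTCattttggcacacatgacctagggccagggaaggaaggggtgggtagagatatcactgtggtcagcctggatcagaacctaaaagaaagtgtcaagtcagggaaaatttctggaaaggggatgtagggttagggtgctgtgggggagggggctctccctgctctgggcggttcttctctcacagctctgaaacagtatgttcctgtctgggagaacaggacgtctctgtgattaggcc
In C1qb the 6 letters GAGGAA begin 30 bases before the start site on the gene's strand. In C1qc the longer site GAGGAAGT, which contains GAGGAA, lies on the other strand, and its match begins 195 bases before the start site. C1qa is not in the promoter table.

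The other complement members were more uneven. C4b, the fourth component, which astrocytes and neurons also make, had 23.5 TPM in replicate 2 and 22.2 TPM in replicate 1. Its near copy C4a, annotated as a processed transcript, had 9.97 TPM in replicate 2 and 7.83 TPM in replicate 1, and by the deposited posterior SD the read assignment of neither gene was uncertain. The second transcript table put C4b lower, at 16.5 ± 0.57 TPM. C3, the central component of the cascade, had 1.64 TPM and 108 counts in replicate 2, against 1.08 TPM and 93 counts in replicate 1. C4b stood 14.3 times above C3 in replicate 2 and 20.5 times in replicate 1, but 8.93 times in replicate 2 and 9.91 times in replicate 1 in the second transcript table. The log2 ratio of C3, 0.47, had an interval from 0.06 to 0.89, but in the second transcript table the ratio was 0.24 with an interval from -0.15 to 0.64.

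Itgam, the CD11b chain of the complement receptor CR3, had 4.78 TPM in replicate 2 and 6.15 TPM in replicate 1. Itgax, the CD11c chain of CR4 that marks activated microglia, had 5 counts in replicate 2 and 0 counts in replicate 1. A count of 0 allows up to 3 counts, so Itgax is not settled at this depth, and the second transcript table listed reads of Itgax in both libraries, at 0.13 TPM in replicate 2 against 0.24 TPM in replicate 1. Of 12 further complement genes, 6 were at 1 TPM or more in both libraries. They included the regulator gene Cr1l, at 19.2 TPM in replicate 2 against 18.6 TPM in replicate 1. Cfb, of the alternative pathway, was lowest at 7 counts in replicate 2 and 4 counts in replicate 1.

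The 3 transcription factors were low, summing to 9.06 TPM in replicate 2 and 11.6 TPM in replicate 1. Sall1, a zinc finger factor that sets microglia apart from other macrophages, had 5.42 TPM in replicate 2 and 6.28 TPM in replicate 1. Its log2 ratio of -0.21 had an interval from -0.38 to -0.04. Irf8, an interferon regulatory factor needed for microglia to mature, had 114 counts in replicate 2 and 131 counts in replicate 1. An overlapping model on its strand, Gm20388, had 784 counts in replicate 2 and 7 counts in replicate 1 and met the 2-fold criterion, but its read assignment was uncertain by the deposited posterior SD, whereas that of Irf8 was not. Gm20388 runs far beyond Irf8, at chr8:119910841-124345722. In the second transcript table it had 9.15 TPM in replicate 2 against 4.25 TPM in replicate 1, a far smaller gap. Spi1, which encodes the myeloid factor PU.1, had 43 counts in replicate 2 and 37 counts in replicate 1. Its TPM lay the other way, at 1.34 in replicate 2 and 1.98 in replicate 1, with effective lengths of 1817 bases in replicate 2 and 888 bases in replicate 1.

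Letters of the PU.1 site were counted in the promoters of the list. Of 35 members with a RefSeq promoter, 23 or 65.7% held GAGGAA on either strand, against 31.3% of 27025 genes with a promoter. The longer GAGGAAGT was in 5 of the 35, or 14.3%, against 3.69% of those genes. The 5 holders were Ctss, C1qc, Pf4, Spp1 and F13a1. By promoter rather than by gene, the shares were 28.3% and 3.20% of all 32851 windows of the same 300 bases. A match is a description of the letters and not evidence of binding.

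Genes shared by most macrophages ranged from 29.4 TPM for Ctss to 1.49 TPM for Cd14 in the mean. Ctss, the lysosomal protease cathepsin S, had 28.7 TPM in replicate 2 and 30.0 TPM in replicate 1. Laptm5, a lysosomal membrane protein of blood-lineage cells, had 14.3 TPM in replicate 2 and 17.8 TPM in replicate 1. Cd68, the lysosomal glycoprotein used to stain phagocytes, had 8.30 TPM in replicate 2 and 7.53 TPM in replicate 1. These lysosomal genes all had intervals that included a ratio of 1.

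Olfml3, a secreted olfactomedin-like protein enriched in microglia, had 6.52 TPM in replicate 2 and 6.72 TPM in replicate 1. Lyz2, a lysozyme, had 6.16 TPM in replicate 2 and 6.76 TPM in replicate 1. Its copy Lyz1 had 8 counts in replicate 2 and 18 counts in replicate 1. These are counts after assignment, so they cannot show how many reads passed between the copies. By the deposited posterior SD the read assignment of neither gene was uncertain. Ly86, the partner of a Toll-like receptor homologue, had 5.69 TPM in replicate 2 and 4.36 TPM in replicate 1, a log2 ratio of 0.40 with an interval from 0.01 to 0.80. Aif1, which encodes the stain target IBA1, had 47 counts in replicate 2 and 38 counts in replicate 1. Its depth could not separate the libraries, as the interval of its log2 ratio ran from -0.08 to 1.22.

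Ptprc, the CD45 phosphatase of all white blood cells, had 1.37 TPM and 70 counts in replicate 2, against 2.58 TPM and 120 counts in replicate 1. Its log2 ratio of -0.51 had an interval from -0.97 to -0.08. Cd14, the co-receptor for bacterial lipopolysaccharide, had 36 counts in replicate 2 and 51 counts in replicate 1. Lymphocyte genes were near 0 beside Ptprc: their 9 listed genes summed to 11 counts in replicate 2 and 13 counts in replicate 1, led by Cd79a with 7 counts in replicate 2 and 8 counts in replicate 1. By mean TPM Cd3d came next, on a short effective length, with 0.29 TPM from 1 count in replicate 2 and 0 counts in replicate 1. Cd3e, Cd3g and Cd8a had 0 counts. The second transcript table listed Cd3d higher, with 1.02 TPM in replicate 2 against 0.64 TPM in replicate 1. There Cd8a had 0.26 TPM in replicate 2 and 0.30 TPM in replicate 1. Cd3g had 0.19 TPM in replicate 2 and 0.09 TPM in replicate 1, and Cd3e stayed at 0. Of the monocyte genes, Ccr2 had 1 count in replicate 2 and 2 counts in replicate 1, and Plac8 and Chil3 had 0. Ly6c2 of the same list was above 1 TPM in both libraries. It had 1.37 TPM and 22 counts in replicate 2, against 1.84 TPM and 23 counts in replicate 1. The high members of that list, Fn1 at 24.9 TPM in replicate 2 against 31.1 TPM in replicate 1 and Vcan at 8.02 TPM in replicate 2 against 7.97 TPM in replicate 1, are also made by vascular and glial cells.

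The TAM receptor kinases, which bind phosphatidylserine on dying cells through GAS6 and PROS1, were well measured. Axl had 17.0 TPM and 1082 counts in replicate 2, against 22.5 TPM and 1234 counts in replicate 1. Mertk had 12.1 TPM and 876 counts in replicate 2, against 16.7 TPM and 1479 counts in replicate 1. Mertk was lower in replicate 2 at a log2 ratio of -0.50, with an interval from -0.62 to -0.38. For Axl the counts gave a log2 ratio of 0.07, with an interval from -0.05 to 0.19, while its TPM gave -0.40. Astrocytes also express both kinases, and the 7 genes of the astrocyte list went both ways, 3 with an interval above a ratio of 1 and 3 below, with a median log2 ratio of -0.06. Gja1 and Aqp4 were lower in replicate 2, at log2 ratios of -0.26 and -0.27, and the part of astrocytes in the Mertk value was not tested. Its highest genes, Slc1a2 and Aldoc, had 870 TPM and 380 TPM in replicate 2, against 820 TPM and 356 TPM in replicate 1, and its lowest, Aldh1l1, had 16.9 TPM in replicate 2 against 19.8 TPM in replicate 1. Of the ligands, Gas6 had 48.5 TPM in replicate 2 and 41.8 TPM in replicate 1, and Pros1 had 4.25 TPM in replicate 2 and 5.85 TPM in replicate 1. Gas6 thus exceeded Pros1 by 11.4 times in replicate 2 and 7.14 times in replicate 1.

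The other listed ligands, neuronal and glial signals to microglia, spanned a wide range. Cx3cl1, the gene of fractalkine, had 186 TPM in replicate 2 and 187 TPM in replicate 1, the highest of the 10 listed ligands. It stood 12.3 times above its receptor Cx3cr1 in replicate 2 and 13.6 times in replicate 1. Cd47, the signal that restrains engulfment, had 117 TPM in replicate 2 and 114 TPM in replicate 1. Far lower were the growth factor genes Tgfb2, at 11.9 TPM in replicate 2 against 15.7 TPM in replicate 1, and Tgfb1, at 3.69 TPM in replicate 2 against 4.29 TPM in replicate 1. These compare RNA levels in mixed tissue and not the amounts of protein.

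Genes that mark activated microglia divided into 1 high gene and a pair of low ones. Lpl, lipoprotein lipase, which hippocampal neurons also make, had 26.8 TPM and 1688 counts in replicate 2, against 22.0 TPM and 1660 counts in replicate 1. Its log2 ratio of 0.28 had an interval from 0.18 to 0.38. Spp1, the secreted protein osteopontin, had 2.82 TPM and 65 counts in replicate 2, against 4.16 TPM and 109 counts in replicate 1. Its log2 ratio of -0.48 had an interval from -0.95 to -0.03. Clec7a, the receptor dectin-1, had 2 counts in each library, and the annotation lists it as a polymorphic pseudogene.

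Other genes of the disease-associated microglial state were listed beside these. Apoe had 839 TPM in replicate 2 and 902 TPM in replicate 1, and Ctsb had 224 TPM in replicate 2 and 212 TPM in replicate 1. Both are made in quantity by other brain cells too. Cst7, which is largely restricted to activated microglia in brain, had 0 counts in replicate 2 and 1 count in replicate 1. Gpnmb, a glycoprotein of phagocytes and pigment cells, was the 1 gene of the 12 that met the 2-fold criterion, with 257 counts in replicate 2 and 132 counts in replicate 1 and a log2 ratio of 1.21. The 10 inflammatory genes were all under 1 TPM in both libraries. By mean TPM the highest was Nlrp3, with 0.50 TPM in replicate 2 and 0.74 TPM in replicate 1. Cxcl10 came next with 0.25 TPM in replicate 2 against 0.58 TPM in replicate 1, on 2 counts in replicate 2 and 3 counts in replicate 1, fewer than those of Nos2 or Il1b. Il6 and Ccl4 had 0 counts in both.

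The 7 border macrophage genes were the lowest group of members, summing to 4.10 TPM in replicate 2 and 7.82 TPM in replicate 1. Only Mrc1 reached 1 TPM in both libraries. Mrc1, the mannose receptor CD206, had 1.26 TPM and 114 counts in replicate 2, against 1.77 TPM and 191 counts in replicate 1. Its log2 ratio was -0.48 with an interval from -0.83 to -0.14. Cd163, the scavenger receptor for haemoglobin bound to haptoglobin, had 47 counts in replicate 2 and 84 counts in replicate 1. Its log2 ratio was -0.56 with an interval from -1.13 to -0.05.

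F13a1, the A subunit of coagulation factor XIII, which perivascular and meningeal macrophages express, showed the widest gap of any well-measured member. It had 0.59 TPM and 39 counts in replicate 2, against 1.40 TPM and 110 counts in replicate 1. Its log2 ratio was -1.20 with an interval from -1.80 to -0.70, beside 0.513% of all tested genes that were at least 2-fold lower in replicate 2. The second transcript table gave F13a1 a log2 ratio of -0.82 with an interval from -1.30 to -0.40, which is lower in the same direction but short of 2-fold.

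The other 4 had mean counts under 50. Lyve1, a hyaluronan receptor, had 15 counts in replicate 2 and 28 counts in replicate 1. Cbr2, a carbonyl reductase, had 6 counts in replicate 2 and 14 counts in replicate 1. Pf4, the chemokine platelet factor 4, had 2 counts in replicate 2 and 9 counts in replicate 1, and Ms4a7, a tetraspan membrane protein, had 3 counts in replicate 2 and 4 counts in replicate 1. All 4 intervals included a ratio of 1, although in the second transcript table that of Pf4 ran from -5.43 to -0.02. The fitted ratio was thus below 1 for 7 of 7 border genes, with an interval below 1 for 3. Over all annotated genes 13553 were lower and 13908 higher in replicate 2, and 25.6% of genes tested had an interval below 1. The other 39 members split into 18 higher and 21 lower in replicate 2. Scaling by spike-ins shifted the median of all genes to -0.26 and the split to 9 higher and 30 lower, and relative to that shift it was again 18 and 21, with 6 of the 7 border genes below. By the second transcript table, fitted ratios were below 1 for 6 of the 7, the exception being Ms4a7. Microglial Cx3cr1 exceeded Mrc1 by 9.86 ± 3.01 times in TPM.

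Genes of the tissues that these macrophages line also differed between the libraries. Of 8 meningeal fibroblast genes 6 were lower in replicate 2, and 5 had an interval below a ratio of 1, which were Slc6a13 at a log2 ratio of -0.92, Col1a1 at -0.76, Col3a1 at -0.69, Col1a2 at -0.59 and Dcn at -0.42. The highest of that list, Igf2, had 34.1 TPM in replicate 2 and 36.7 TPM in replicate 1, and its interval included 1. With spike-in scaling all 8 were lower. Their summed level was 90.7 TPM in replicate 2 and 110 TPM in replicate 1. Choroid plexus genes lay the other way, with 9 of 9 higher in replicate 2, where 13908 of all annotated genes were higher and 13553 lower. Ttr, the thyroid hormone carrier transthyretin, had 615 TPM in replicate 2 and 21.8 TPM in replicate 1. Kl, which encodes klotho, had 11.4 TPM in replicate 2 and 4.97 TPM in replicate 1. Slc4a5, the lowest of that list by mean TPM, had 1.72 TPM and 144 counts in replicate 2, against 0.10 TPM and 11 counts in replicate 1. Of the 9, 7 met the 2-fold criterion, and those 7 were Ttr, Kl, Sostdc1, Kcnj13, Clic6, Aqp1 and Slc4a5. The 8 endothelial genes had a median log2 ratio of -0.05, with 4 higher and 4 lower, and 2 higher and 6 lower with spike-in scaling. Ly6c1 led them at 31.7 TPM in replicate 2 against 30.4 TPM in replicate 1, followed by Slco1a4 at 23.8 TPM in replicate 2 against 16.0 TPM in replicate 1, and Emcn was lowest at 3.63 TPM in replicate 2 against 2.50 TPM in replicate 1. The part of meningeal or choroid plexus tissue in the border macrophage values was not tested. The 5 red cell genes had a median log2 ratio of -0.03. They ran from Hbb-bs, at 127 TPM in replicate 2 against 124 TPM in replicate 1, and Hba-a1, at 104 TPM in replicate 2 against 113 TPM in replicate 1, down to Alas2, at 1.38 TPM in replicate 2 against 1.84 TPM in replicate 1.

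**Figure D3:**
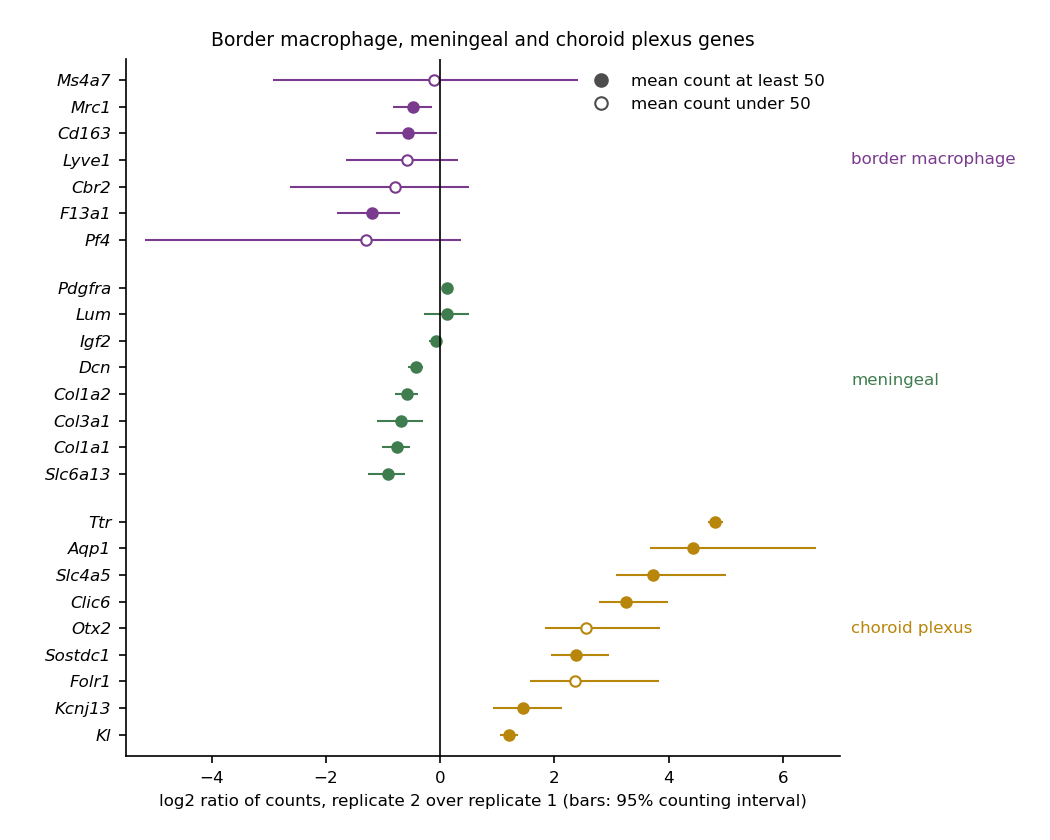
Log2 ratio of counts, replicate 2 over replicate 1, with 95% counting intervals for 7 border macrophage, 8 meningeal and 9 choroid plexus genes. Open circles mark genes with a mean count under 50. The border genes lie below 0 from -0.10 to -1.29, most meningeal genes also lie below 0, and the choroid plexus genes lie between 1.20 and 4.81.

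Counts of F13a1 were assigned to transcripts with different annotated starts in the libraries, and its promoter windows are shown for that reason. Transcript F13a1-202 begins 956 bases upstream of F13a1-201 on the minus strand of chromosome 13. In replicate 2 F13a1-202 held 39.0 counts and F13a1-201 held 0, whereas in replicate 1 F13a1-202 held 0.2 counts and F13a1-201 held 107. The second transcript table divided these 2 transcripts the same way, with 39.4 counts on F13a1-202 and 0 on F13a1-201 in replicate 2, against 0 and 112 in replicate 1. It also placed 22.7 counts in replicate 2 and 19.4 counts in replicate 1 on the noncoding F13a1-203, or 43.3% of the gene's TPM in replicate 2 and 19.1% in replicate 1, where the first table had 0 in replicate 2 and 1.3 in replicate 1. Both windows come from RefSeq on GRCm38.p6. The upstream one, chr13:37050195-37050494, has its start site at the first base of F13a1-202. The downstream one, chr13:37049164-37049463, has its start site 75 bases from the first base of F13a1-201. Capitals mark GAGGAA in the first window and GAGGAAGT in the other.
F13a1 upstream promoter: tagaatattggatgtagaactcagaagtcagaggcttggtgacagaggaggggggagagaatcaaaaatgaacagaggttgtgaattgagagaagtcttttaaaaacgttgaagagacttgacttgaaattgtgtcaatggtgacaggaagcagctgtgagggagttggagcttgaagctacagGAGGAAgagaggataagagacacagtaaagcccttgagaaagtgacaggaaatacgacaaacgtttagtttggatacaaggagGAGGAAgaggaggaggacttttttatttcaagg
F13a1 downstream promoter: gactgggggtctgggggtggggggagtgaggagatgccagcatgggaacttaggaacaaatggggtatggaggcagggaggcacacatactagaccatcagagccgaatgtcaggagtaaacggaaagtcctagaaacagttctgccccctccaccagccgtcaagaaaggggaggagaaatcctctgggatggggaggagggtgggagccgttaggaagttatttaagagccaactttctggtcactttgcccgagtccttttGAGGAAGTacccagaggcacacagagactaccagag
The longer site was thus in the downstream window and not in the upstream one, which held the shorter letters at 2 places.

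Cd163 had the same kind of switch. Cd163-202 held 36.3 counts in replicate 2 and 0 in replicate 1, while Cd163-201 held 0 counts in replicate 2 and 68.4 in replicate 1, and the second transcript table again agreed in placing 0 where the first had 0. Within the span they share, Cd163-202 has 83 more coding bases in exon 16 of 17, at chr6:124328962-124329044 on the plus strand of GRCm38. They are shown from the GENCODE M21 transcript, in capitals throughout.
Cd163-202 stretch: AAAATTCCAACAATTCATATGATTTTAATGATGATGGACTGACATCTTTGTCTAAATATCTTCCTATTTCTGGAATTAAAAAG
These transcript counts are shares estimated among transcripts with common sequence, so a 0 here is an assignment and not an absence of reads that such a transcript could have given. The cause of the switch in F13a1 and Cd163 was not tested.

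Of the 41 members with several annotated transcripts, 30 had the same most abundant transcript in both libraries, and 29 did so in the second transcript table. Only 22 had the same one in both libraries and both tables. Among the 32 with a mean count of at least 50, these counts were 27, 25 and 21. In the first table the most abundant transcript was not a coding one in both libraries for 4 members.

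Of those, Olfml3 had 523 counts in the mean, while Cbr2, Clec7a and Pf4 had mean counts under 50. The Olfml3 retained-intron transcript Olfml3-202 held 89.1% of the gene's TPM in replicate 2 and 84.5% in replicate 1, and in the second transcript table it held 92.7% in replicate 2 and 87.8% in replicate 1. Most of its level as a gene was thus that of a transcript annotated with a retained intron, and the coding Olfml3-201 held 10.9% in replicate 2 and 15.5% in replicate 1. In Aif1, at lower depth, retained-intron forms held 43.8% in replicate 2 and 37.5% in replicate 1. Its most abundant transcript was the retained-intron Aif1-205 in replicate 2, but in replicate 1 it was a coding one, Aif1-201 in the first table and Aif1-203 in the second. For Fcgr3 the tables disagreed. The coding Fcgr3-201 led in the first, at 54.4% in replicate 2 and 78.7% in replicate 1. The retained-intron Fcgr3-203 led in the second, at 65.1% in replicate 2 and 57.2% in replicate 1. The second table also put a coding transcript first for Pf4 in replicate 2 and for Cbr2 in replicate 1.

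In 12 members, Olfml3 and Aif1 among them, at least 2 transcripts held 10% or more of the TPM in both libraries, and 8 of the 12 had the same leading transcript in both libraries and both tables. Lpl-201 held 79.4% of its gene in replicate 2 and 77.9% in replicate 1, beside the nonsense-mediated decay transcript Lpl-203 at 19.0% in replicate 2 and 17.8% in replicate 1. C4b-201 held 60.3% in replicate 2 and 69.0% in replicate 1, with the retained-intron C4b-203 at 26.8% in replicate 2 and 21.2% in replicate 1. Retained introns were also found in Axl, where the coding Axl-201 held 81.1% in replicate 2 and 54.8% in replicate 1. The retained-intron Axl-207 held 12.5% in replicate 2 and 25.1% in replicate 1, on 13.2 and 42.3 counts. The second table gave Axl-207 0% in replicate 2 and 8.1% in replicate 1. There the retained-intron Axl-208 held 25.1% in replicate 2 and 22.3% in replicate 1, against 0% in the first table. For the lectins, Cd33-203 held 52.5% in replicate 2 and 33.8% in replicate 1, and Siglech-201 held 50.6% in replicate 2 and 43.1% in replicate 1. Irf8-201 held 69.9% in replicate 2 and 42.7% in replicate 1. Cd68 kept its leader but not its shares across tables: Cd68-201 held 56.7% in replicate 2 and 55.9% in replicate 1 in the first table, and 74.5% in replicate 2 and 100% in replicate 1 in the second.

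Besides Aif1, the tables named different leading transcripts for the remaining 3 of these members. In Csf3r the first table put Csf3r-201 first, at 54.0% in replicate 2 and 34.3% in replicate 1, whereas the second put Csf3r-202 first, at 91.6% in replicate 2 and 39.9% in replicate 1. In Gpr34 the first table had Gpr34-202 at 72.1% in replicate 2 and 83.4% in replicate 1, whereas the second had it at 73.7% in replicate 2 and 37.0% in replicate 1, below Gpr34-201. In Laptm5 the first table had Laptm5-207 at 47.2% in replicate 2 and 40.1% in replicate 1, whereas the second had it at 31.3% in replicate 2, just below Laptm5-202, and at 41.3% in replicate 1.

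Itgam and P2ry12 show where the tables part. In the first table Itgam-203 held 322 counts in replicate 2 and 0 in replicate 1, while Itgam-201 held 0 counts in replicate 2 and 414 in replicate 1. The second table placed 81.3% of Itgam on Itgam-201 in replicate 2 and 83.2% in replicate 1, so the apparent switch was in 1 table only. Within the span they share, Itgam-201 has 3 more coding bases than Itgam-203, at chr7:128101634-128101636. A similar triplet, at chr3:95529434-95529436, is present in Ctss-201 and absent from Ctss-202. Both Ctss transcripts have 1355 bases, so the triplet is not their only difference. Ctss-202 held 91.1% of the TPM in replicate 2 and 100% in replicate 1. Both triplets are shown in capitals, with 12 bases of the GENCODE M21 transcript on each side, on the plus strand.
Itgam-201 triplet: ttgcctcgagggCAGagggcacggtgg
Ctss-201 triplet: ccacgctgccatCAGaagatggctgtt
Both triplets read CAG. P2ry12-202 held 73.5% of P2ry12 in replicate 2 and 1.9% in replicate 1, and P2ry12-204 held 0% in replicate 2 and 80.6% in replicate 1. In the second table P2ry12-201 led instead, at 47.7% in replicate 2 and 44.7% in replicate 1. P2ry12-202 and P2ry12-204 are both annotated as protein coding, with 2101 and 2157 bases, and their sequences were not compared here. The gene's TPM rests on effective lengths of 1717 bases in replicate 2 and 1922 bases in replicate 1, which follow this assignment.

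Ptprc, whose variable exons are spliced differently among white blood cell types, also divided. Ptprc-204 held 37.8 counts in replicate 2 and 0 in replicate 1, and Ptprc-203, which carries exon 4 of 30 in addition, held 0 counts in replicate 2 and 79.7 in replicate 1. The second table kept Ptprc-203 in both, with 38.6 counts in replicate 2 and 83.8 in replicate 1, so this switch too was in 1 table only. The exon has 72 bases at chr1:138116954-138117025 on the minus strand and is shown from GENCODE M21 in capitals. Its number 4 counts exons along Ptprc-203 and was not matched to the usual numbering of the CD45 variable exons.
Ptprc-203 exon 4: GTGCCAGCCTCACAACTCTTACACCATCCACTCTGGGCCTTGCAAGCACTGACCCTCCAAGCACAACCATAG
Few reads of the second table fell on Ptprc-204, which lacks these bases, with 1.8 counts in replicate 2 and 0 in replicate 1.

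**Figure D4:**
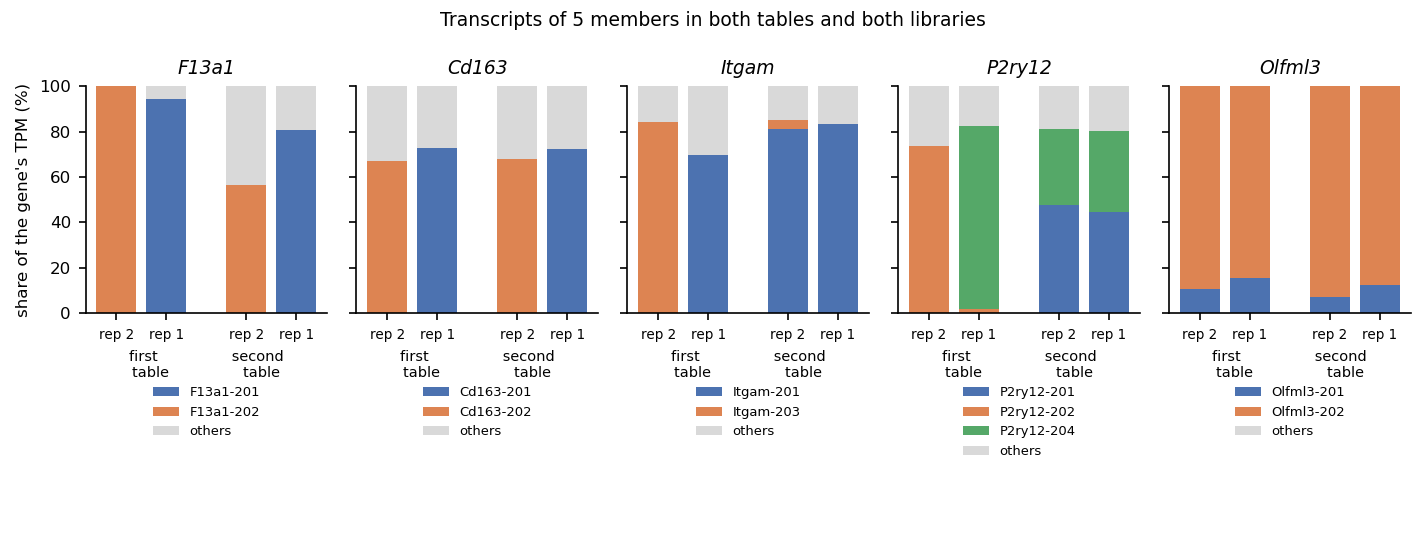
Share of each gene's TPM (percent, stacked to 100) held by named transcripts of F13a1, Cd163, Itgam, P2ry12 and Olfml3, in replicate 2 and replicate 1, from the first transcript table (left pair of bars) and the second (right pair). F13a1 and Cd163 change their main transcript between the libraries in both tables, Itgam and P2ry12 in the first alone, and Olfml3 stays on Olfml3-202.

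Genes beyond the list that microglia share gave a similar picture. All 12 listed were at 1 TPM or more in both libraries, and their median log2 ratio was -0.02. Lgmn, the protease legumain, had 44.4 TPM in replicate 2 and 42.4 TPM in replicate 1. Hpgds, a prostaglandin D synthase, was lowest at 2.33 TPM in replicate 2 against 2.43 TPM in replicate 1. None of the 12 met the 2-fold criterion.

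The measurements have limits that touch named members. For 8 members the TPM ratio and the count ratio had opposite signs, namely P2ry12, Fcrls, Cd33, Fcgr3, C4b, Irf8, Spi1 and Axl, because effective lengths moved with the transcripts assigned. Another annotated gene overlapped 15 members, 7 of them on the opposite strand, and the model of Cx3cr1 spans other genes, among them Wdr48 at 35.0 TPM in replicate 2 against 37.3 TPM in replicate 1. Gpr34 lies within Cask, which had 41.3 TPM in replicate 2 and 35.4 TPM in replicate 1. Levels from the gene table and the second transcript table ranked the members alike, with a Spearman rho of 0.986 across the 46 genes. They differed by over 1.5 times for 4 members, Pf4, Ms4a7, Itgax and Clec7a, all of them under 1 TPM in the mean.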

How the data were processed

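Total RNA of 2 hippocampus libraries was read from 1 gene table and 2 transcript tables each, made on mm10 and GENCODE M21 according to the file notes. Expected counts in RSEM layout were deposited without normalisation and were rounded to whole numbers here. TPM and FPKM were deposited by the authors after length normalisation, and FPKM was used in 1 alternative. The authors deposited the percent of TPM per transcript, which was recomputed here. Per the file headers, the posterior SD is a signal in counts, and read assignment was called uncertain where it exceeded 2 times the square root of the count. The second transcript table, in kallisto layout, holds estimated counts per transcript, deposited by the authors. Aligner, tool versions and use of strand, not given in the sources used here, remain unknown. Spike-ins, at 0.212% of counts in replicate 2 and 0.178% in replicate 1, were left out of library sizes, as were phiX, with 71 counts in replicate 2 and 79 in replicate 1, and 26248 numeric entries, with 0 in replicate 2 and 4 in replicate 1.

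TMM scaling in edgeR 4.0.16 under R 4.3.3 gave library sizes of 28448001 for replicate 2 and 34038040 for replicate 1, and log2 ratios used a prior count of 2. Intervals are exact Clopper-Pearson at 95%. DESeq2 1.42.0 size factors, total counts, spike-in totals, other thresholds, the second transcript table and a TPM denominator of nuclear protein-coding genes were alternatives. The ratio code was tested on simulated data. Motifs were searched on both strands of 300-base RefSeq promoters.

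The members and all lists were chosen with earlier results of these data known. All 46 members are accounted for. Of each other list, the 2 highest genes, the lowest gene and any gene meeting the 2-fold criterion were named, as were transcripts of members with at least 2 at 10% of the gene's TPM or more. Other genes were named after their values were seen, and a few that the rule covers are not reported here.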

Additional observations from a re-analysis of the deposited data

How the results depend on the processing

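No paired analysis was possible because the libraries form 1 group. The number of members that differed at least 2-fold was 0 in the second transcript table and 2 (Itgax and F13a1) with no count minimum, against 1. Scaling by spike-ins put the median log2 ratio of the members at -0.32, where that of all genes was -0.26, and turned Cx3cr1 to -0.10. In all 9 members changed sign under that scaling, 8 of them with an interval that had included a ratio of 1. Besides Cx3cr1, 6 members lost an interval that had excluded a ratio of 1, and 14 gained one. Which members had such an interval therefore depended on the choice between TMM and spike-in scaling. DESeq2 size factors and total counts moved no member across its interval. The summed level of the members was 369 TPM in the second transcript table and 820 when TPM was rescaled to nuclear protein-coding genes. By group, the second table gave 85.0 for sensing receptors, 28.9 for CSF receptors, 79.2 for complement and 73.4 for macrophage genes. Over nuclear protein-coding genes the sums were 182 for sensing receptors, 69.8 for CSF receptors, 60.8 for ITAM-linked receptors, 192 for complement, 20.6 for transcription factors, 158 for macrophage genes, 68.4 for TAM receptors, 56.0 for activation genes and 11.9 for border genes. With either library alone, 38 to 42 members reached 1 TPM and the sum was 404 to 414 TPM. The group sums then ranged over 89.6 to 92.4, 33.6 to 36.1, 28.4 to 32.2, 94.5 to 97.0, 9.06 to 11.6, 77.4 to 80.3, 29.1 to 39.2, 26.2 to 29.7 and 4.10 to 7.82 TPM in the same order. The count of border genes lower in replicate 2, whose alternatives were chosen after seeing the data, was 6 or 7 of 7. Counts under 50 limit 9 members to wide intervals.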
